A study of Mus musculus with 6 samples.

Results

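The EGF receptor family and its ligands were examined in liver tumors of WT and Nr2e3-/- mice as 10 genes, 4 receptors (Egfr, Erbb2, Erbb3 and Erbb4) and 6 ligands (Egf, Tgfa, Hbegf, Areg, Btc and Ereg). They were taken by gene symbol from a table of 24063 genes, and all 10 were found in it. The table held 3 libraries of WT tumors (NR2E3+/+) and 3 of Nr2e3-/- tumors, all from male C57BL/6 mice. All mice had received 25 mg per kg of diethylnitrosamine (DEN), a liver carcinogen, at 15 days of age, and tumors were taken at the 24-week time point. The sources used here describe WT mice as C57BL/6J animals from a supplier and refer to earlier work for the knockout line, and they do not say whether the mice were littermates.

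ErbB receptors are membrane tyrosine kinases that pair with each other when a ligand binds. Egfr binds Egf, Tgfa and Areg, and Hbegf, Btc and Ereg bind both Egfr and Erbb4. Erbb3 has little kinase activity and binds neuregulins, and Erbb2 has no known ligand and works as a partner. The ligands are made as membrane proteins and are cut free by ADAM proteases. In liver, Egfr is abundant on hepatocytes, and the pathway is known for its role in regeneration and in DEN-induced tumor growth.

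Library totals ranged from 25250090 to 28690279 counts in WT and from 15376261 to 28336305 counts in Nr2e3-/- tumors, the lowest in Nr2e3-/- replicate 1. Nr2e3 itself had 0 counts in all 6 libraries, which allows at most 0.101 to 0.199 CPM (3 counts in a library), so the genotype could not be checked from it. This limit covers counting error only. The hepatocyte marker Alb was at 84013 to 130236 CPM in all libraries. Nr2e3-/- replicate 1 was nearer to the WT libraries than the other 2 knockout libraries were. Its correlation over log2 CPM of all tested genes was 0.973 to 0.981 with the WT libraries, against 0.952 with Nr2e3-/- replicate 2 and 0.972 with replicate 3. The lowest correlations with WT were those of Nr2e3-/- replicate 2, at 0.950 to 0.958. Nr2e3-/- replicate 3 was at 0.961 to 0.966 with WT and at 0.979 with replicate 2. Values are given as CPM (counts scaled to 1000000 per library after TMM normalization), and differences as log2 fold changes of Nr2e3-/- over WT.

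No member passed an adjusted p of 0.05 in edgeR's quasi-likelihood F test (0 of 10), where 0.0958% of the 13572 genes tested did. At an unadjusted p under 0.05, 2 of the 10 members were counted, Egfr higher and Hbegf lower in Nr2e3-/- tumors, and 21.5% of all tested genes reached that level, 11.8% as higher and 9.72% as lower. The groups did not overlap for 3 members, Egfr above and Erbb4 and Areg below WT, of which Areg passed the filter on low counts only through the WT group. Among all tested genes this held for 26.8%, 13.9% as higher and 12.9% as lower, so the members' counts were near the background. DESeq2 called 1 member, Egfr, at an adjusted p under 0.05, and 7.93% of its genes with an adjusted p. It counted 2 members at an unadjusted p under 0.05, where 16.3% of genes were. With limma-voom, 2 members passed at an adjusted p, Egfr and Ereg, against 17.4% of genes, and 5 at an unadjusted p, against 36.7%. Ereg, like Areg, passed the filter on low counts only through the WT group. Without Nr2e3-/- replicate 1, edgeR called 2 members, Egfr and Btc, at an adjusted p under 0.05, and 21.8% of the 13840 genes then tested. At an unadjusted p under 0.05 it then counted 4 members, against 37.7% of genes. In bulk tumor RNA, fewer cells of a type and less RNA per cell cannot be told apart. The sources give 3 tumors per genotype without stating how they were sampled from animals, so p-values measure the spread between these samples, which may be technical.

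Levels were compared between genes as CPM per kb of annotated exon. Egfr led the receptors, with 25.7 to 50.3 CPM per kb in WT and 76.2 to 143 in Nr2e3-/- tumors. Erbb3 followed at 8.75 to 16.8 CPM per kb over the 6 libraries and did not reach Egfr in any of them. Erbb2 (0.0863 to 0.304 CPM per kb) and Erbb4 (0.0768 to 0.153) were far lower, and their ranges overlapped. Egfr made up 70.9% to 84.7% of the summed receptor CPM per kb in WT and 81.6% to 93.2% in Nr2e3-/- tumors. Among the ligands Tgfa was highest in every library, at 6.76 to 9.99 CPM per kb. Btc came next, at 1.71 to 3.07 CPM per kb in WT and 1.36 to 9.62 in Nr2e3-/- tumors. Hbegf lay at 0.478 to 2.26 CPM per kb, Areg at 0.163 to 0.537, Ereg at 0.0655 to 0.288 and Egf at 0.0465 to 0.136. Over all 6 libraries the range of each ligand overlapped that of the next in this order. Within each library, however, Tgfa was above Btc, Btc above Hbegf and Hbegf above Areg, and in WT the ranges of Tgfa and Btc did not overlap. Egf, the ligand for which the family is named, thus had the lowest level of the 6 in 5 of the 6 libraries, the exception being Nr2e3-/- replicate 3, in which Ereg was lower.

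**Figure D1:**
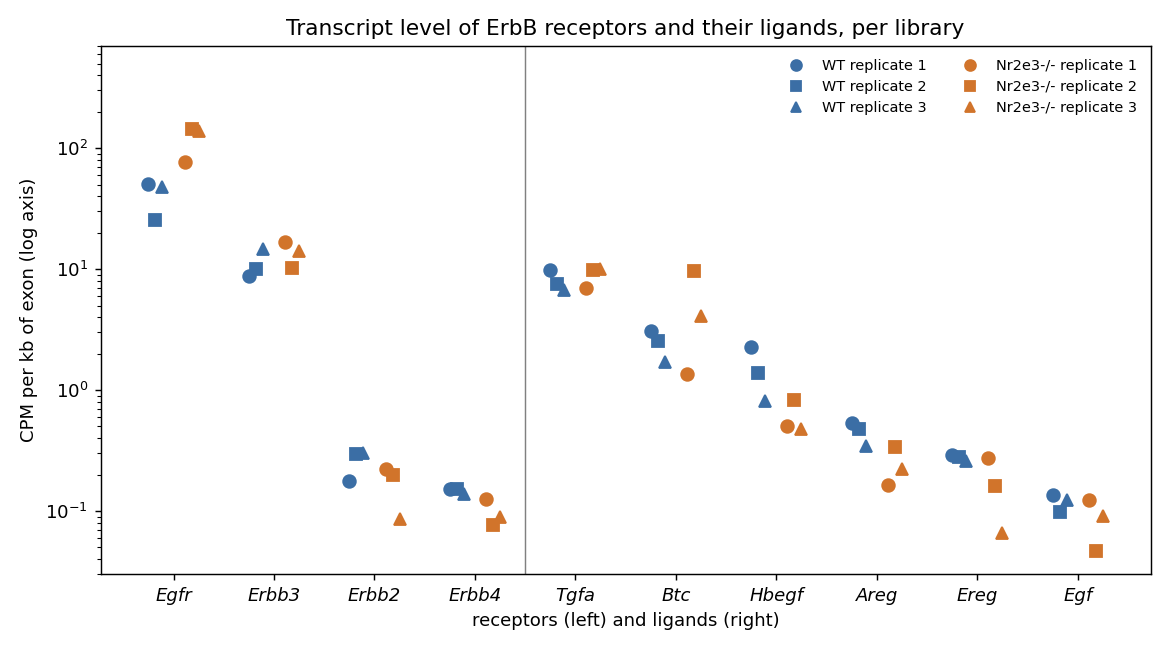
Transcript level of the 4 receptors and 6 ligands in each library, as TMM-normalized CPM per kb of exon on a log axis, with WT in blue, Nr2e3-/- in orange and a marker shape for each replicate number. Egfr lies above all other members, at 25.7 to 143 CPM per kb, and Tgfa leads the ligands at 6.76 to 9.99.

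Among the receptors, Egfr had the largest difference between genotypes. It lies on chromosome 11 (16752203 to 16913907, plus strand, GRCm38) and overlaps the annotated Gm39584 and Egfros, which have no rows of their own in the table. It was at 551, 281 and 526 CPM in WT replicates 1 to 3 and at 835, 1569 and 1519 CPM in Nr2e3-/- replicates 1 to 3. All knockout libraries were above all WT libraries, with replicate 1 the lowest of the 3. The log2 fold change was 1.53 (95% interval 0.75 to 2.31, adjusted p = 0.0999, edgeR). It was between 1.28 and 1.78 in the 13 alternatives, and without Nr2e3-/- replicate 1 it was 1.78 with an adjusted p of 0.0100 in edgeR. When any other single library was left out, the adjusted p in edgeR was between 0.160 and 0.342. It was under 0.05 in 3 of the 13 alternatives.

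Erbb3 and Erbb2, both dimerization partners of Egfr, had overlapping groups. Erbb3 (chromosome 10, 128567523 to 128589635) was at 52.6, 60.6 and 87.7 CPM in WT and at 101, 60.9 and 85.2 CPM in Nr2e3-/- tumors. Here the highest knockout library was replicate 1, which was the lowest of its group for Egfr. This gave a log2 fold change of 0.30 (95% interval -0.28 to 0.87, adjusted p = 0.495, edgeR). It was 0.13 without Nr2e3-/- replicate 1, 0.15 without WT replicate 1, 0.48 without Nr2e3-/- replicate 2 and 0.54 without WT replicate 3. Erbb2 (chromosome 11, 98412484 to 98437716, overlapping Mien1) had 8 to 44 counts per library, or 0.883, 1.49 and 1.53 CPM in WT and 1.13, 1.002 and 0.433 CPM in the knockout libraries. Its log2 fold change was -0.61 (95% interval -1.57 to 0.36, adjusted p = 0.413, edgeR), -0.29 without Nr2e3-/- replicate 3 and -1.04 in limma-voom.

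Erbb4, the receptor for neuregulins and for several EGF-like ligands, was low but its groups did not overlap. It lies on chromosome 1 (68031884 to 69108576) and had 20 to 54 counts per library. It was at 1.84, 1.83 and 1.66 CPM in WT and at 1.52, 0.928 and 1.08 CPM in Nr2e3-/- tumors. The log2 fold change was -0.61 (95% interval -1.24 to 0.02, adjusted p = 0.243, edgeR).

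The differences of Egfr and of its partner receptors were compared within libraries by their log2 ratio, computed from log2 CPM with a prior count of 2. The log2 ratio of Egfr to Erbb2 was 8.33 ± 0.836 (SD, n = 3) in WT libraries and 10.5 ± 1.05 (SD, n = 3) in knockout libraries, a difference of 2.15. For Egfr to Erbb4 the ratio was 7.87 ± 0.575 (SD, n = 3) and 9.99 ± 0.848 (SD, n = 3), a difference of 2.13. In both, every knockout library exceeded every WT library. The ratio of Egfr to Erbb3 went from 2.73 ± 0.599 (SD, n = 3) to 3.96 ± 0.839 (SD, n = 3), a difference of 1.23, and the groups overlapped. Exact two-sided permutation tests gave p = 0.1, 0.1 and 0.2 for Erbb2, Erbb4 and Erbb3 (adjusted over the 3 ratios 0.15, 0.15 and 0.2). The smallest p that 3 against 3 allow is 0.1, so no ratio could pass 0.05 in this test.

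**Figure D2:**
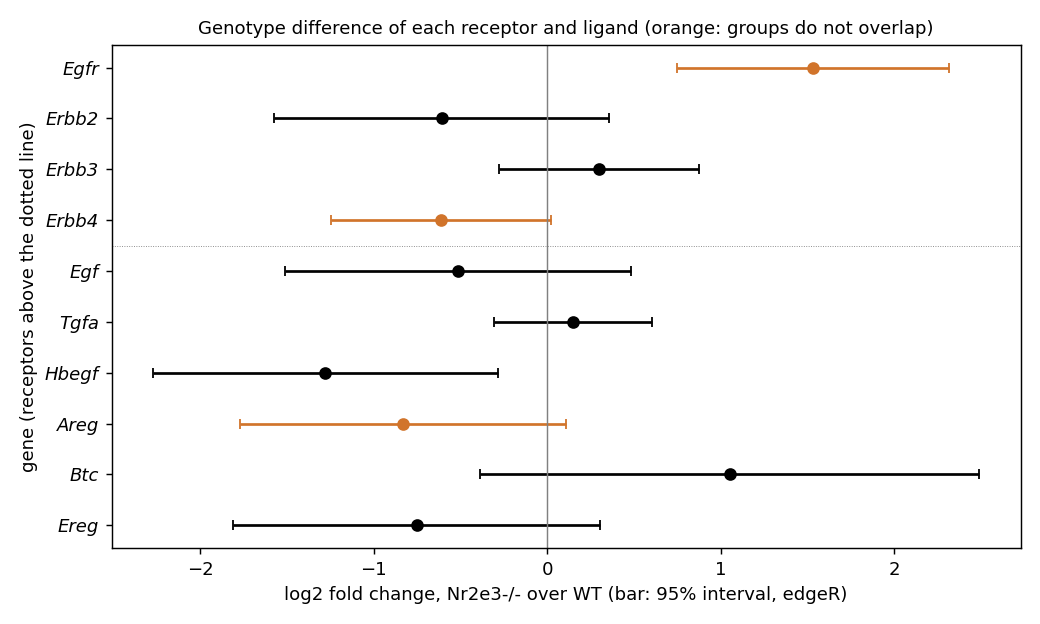
Log2 fold change of Nr2e3-/- over WT tumors for each receptor and ligand (points) with its 95% interval from edgeR (bars), orange where the groups do not overlap. Only the intervals of Egfr (0.75 to 2.31) and Hbegf (-2.27 to -0.29) lie on a single side of 0.

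Of the ligands, Tgfa, the most abundant, differed least. Tgfa (chromosome 6, 86195038 to 86275744) was at 44.8, 34.3 and 30.6 CPM in WT and at 31.5, 44.7 and 45.2 CPM in Nr2e3-/- tumors. The ranges of the groups covered nearly the same values. Its log2 fold change came to 0.15 (95% interval -0.31 to 0.61, adjusted p = 0.674, edgeR). It lay between 0.03 (without WT replicate 3) and 0.32 (without WT replicate 1) in the alternatives.

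Hbegf, a heparin-binding ligand known to be induced by tissue injury, was the 1 member counted as lower at an unadjusted p under 0.05. It lies on chromosome 18 (36504927 to 36515805) and was at 5.38, 3.32 and 1.94 CPM in WT and at 1.19, 1.97 and 1.14 CPM in Nr2e3-/- tumors. The groups touched, since Nr2e3-/- replicate 2 was just above WT replicate 3. In log2 terms the fold change was -1.28 (95% interval -2.27 to -0.29, unadjusted p = 0.0185, adjusted p = 0.164, edgeR). WT replicate 1 held the highest value, and without it the log2 fold change was -0.85 with an unadjusted p of 0.0683 in edgeR. The unadjusted p was also above 0.05 without Nr2e3-/- replicate 1 (0.0501) and without Nr2e3-/- replicate 3 (0.0645).

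Ereg, Areg and Btc lie side by side on chromosome 5, in a cluster that also holds the related ligand Epgn. From the lower coordinate upward the order is Epgn (91027517 to 91035212), Ereg (91074617 to 91093649), Areg (91139599 to 91148432) and Btc (91357261 to 91402994, minus strand). The fold changes of Ereg, Areg and Btc did not share a direction. Btc was at 8.83, 7.34 and 4.92 CPM in WT and at 3.91, 27.7 and 11.7 CPM in Nr2e3-/- tumors. Replicates 2 and 3 of the knockout were above all WT libraries and replicate 1 was below them. For Btc the log2 fold change was 1.05 (95% interval -0.39 to 2.49, adjusted p = 0.348, edgeR). Without Nr2e3-/- replicate 2 it was 0.16, and without Nr2e3-/- replicate 1 it was 1.502 with an adjusted p of 0.0380 in edgeR.

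Areg, a low-affinity Egfr ligand, had 12 to 17 counts per library in WT and 3 to 11 in Nr2e3-/- tumors. This is 0.653, 0.575 and 0.416 CPM in WT and 0.199, 0.408 and 0.270 CPM in Nr2e3-/- tumors, and the groups did not overlap by a narrow margin. The 3 counts of Nr2e3-/- replicate 1 carry an exact 95% Poisson interval of 0.0410 to 0.580 CPM. This interval spans all values of the knockout group and also those of WT replicates 2 and 3. For Areg the log2 fold change was -0.83 (95% interval -1.77 to 0.11, adjusted p = 0.274, edgeR). Ereg, which encodes epiregulin, was at 1.19, 1.15 and 1.08 CPM in WT and at 1.13, 0.668 and 0.270 CPM in Nr2e3-/- tumors. The WT libraries lay close together, and knockout replicate 1 was among them. This gave a log2 fold change of -0.75 (95% interval -1.81 to 0.31, adjusted p = 0.362, edgeR). It was -1.45 in limma-voom (adjusted p = 0.0483), -1.20 without Nr2e3-/- replicate 1 and -0.37 without Nr2e3-/- replicate 3. Epgn had 0 counts in 5 libraries and 5 counts in Nr2e3-/- replicate 2.

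Egf (chromosome 3, 129677574 to 129755322) was at 0.653, 0.474 and 0.590 CPM in WT and at 0.596, 0.223 and 0.433 CPM in Nr2e3-/- tumors, from 6 to 17 counts per library. The groups overlapped and the log2 fold change was -0.52 (95% interval -1.51 to 0.48, adjusted p = 0.495, edgeR). It was -0.16 without Nr2e3-/- replicate 2 and -0.84 without Nr2e3-/- replicate 1. Egf, Areg and Ereg reached the level that the filter on low counts asks for, 0.380 CPM, in 3 WT libraries but in only 2, 1 and 2 knockout libraries. They were therefore tested on the strength of the WT group, and their negative direction adds nothing to the count of members below 0. Over all 10 members, 4 log2 fold changes were above 0 and 6 below, with a median of -0.56. Over the 7 members at that level in every library, 4 were above 0 and 3 below, with a median of 0.15. The sign of the median thus turned with these 3 genes, and over all genes tested it was 0.01.

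As a share of summed ligand CPM per kb, Tgfa made up 61.1% to 67.5% in WT and 47.3% to 74.2% in Nr2e3-/- tumors. Btc made up 17.1% to 20.6% in WT and 14.5%, 46.1% and 27.3% in Nr2e3-/- replicates 1, 2 and 3. Hbegf made up 8.16% to 14.0% in WT and 3.21% to 5.35% in Nr2e3-/- tumors. The share of Btc was thus highest in Nr2e3-/- replicate 2, where that of Tgfa was lowest. Shares of a single total are tied to each other, and the level of Tgfa was not low in that library. It was 9.87 CPM per kb there, near its highest value of 9.99. The summed ligand level was 10.02 to 16.2 CPM per kb in WT and 9.38 to 20.9 in Nr2e3-/- tumors, so the groups overlapped, whereas the summed receptor level, of which Egfr was the largest share in every library, was 36.2 to 63.0 and 93.4 to 154.

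**Figure D3:**
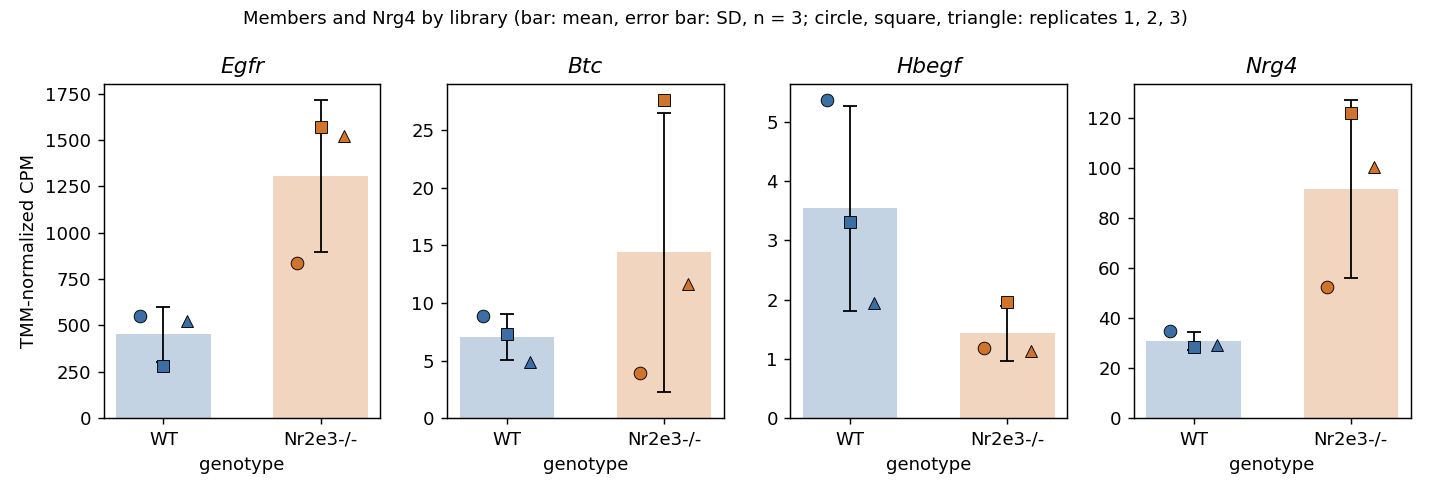
TMM-normalized CPM of Egfr, Btc, Hbegf and Nrg4 in each library (points, with a shape for each replicate number), with the mean (bar) and SD (error bar, n = 3) of WT in blue and Nr2e3-/- in orange. Nr2e3-/- replicate 1 is the lowest knockout library for Egfr (835 CPM), Btc (3.91) and Nrg4 (52.5).

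The sequences upstream of Egfr, Areg and Btc are shown because Egfr is the receptor with the largest difference, and because Areg and Btc are neighbors in the ligand cluster whose levels lay on opposite sides of WT in knockout replicates 2 and 3. They are the 250 bases before the annotated RefSeq start on the strand of the gene (GRCm38.p6), at chr11:16751953-16752202 (plus), chr5:91139349-91139598 (plus) and chr5:91402995-91403244 (minus). Capitals mark GC boxes, the letters GGGCGG on either strand, which Sp1, a factor studied in this work, is known to bind.
Egfr: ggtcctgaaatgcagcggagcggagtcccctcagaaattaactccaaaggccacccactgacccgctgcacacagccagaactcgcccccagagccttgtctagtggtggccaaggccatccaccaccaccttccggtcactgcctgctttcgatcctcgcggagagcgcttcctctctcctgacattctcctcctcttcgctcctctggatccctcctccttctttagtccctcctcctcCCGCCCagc
Areg: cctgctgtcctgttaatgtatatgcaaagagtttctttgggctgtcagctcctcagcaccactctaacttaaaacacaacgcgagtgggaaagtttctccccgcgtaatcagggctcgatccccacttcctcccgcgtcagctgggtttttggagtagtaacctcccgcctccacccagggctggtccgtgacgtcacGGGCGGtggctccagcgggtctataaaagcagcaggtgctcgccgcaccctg
Btc: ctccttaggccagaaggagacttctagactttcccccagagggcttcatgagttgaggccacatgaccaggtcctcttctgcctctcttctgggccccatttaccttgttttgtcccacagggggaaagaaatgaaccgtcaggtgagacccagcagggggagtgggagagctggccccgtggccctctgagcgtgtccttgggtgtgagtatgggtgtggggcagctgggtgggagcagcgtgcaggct

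The RefSeq promoter table matched 7 of the 10 members by symbol, and Erbb3, Hbegf and Ereg were not matched. GC boxes were found in the windows of Egfr (1), Tgfa (2) and Areg (1). Of all 32851 promoter windows of this length, 32.7% hold at least 1. The Tgfa window (chr6:86194972-86195221) runs past the gene start given above (86195038), and both of its GC boxes lie beyond that start. The Erbb4 window and a further window of Egf lie inside the gene coordinates given above. The TATA box letters TATAAA were found upstream of Areg (1), and 12.4% of windows hold them. The AP-1 letters TGANTCA (6.75% of windows), the E-box letters CACGTG (6.02%) and the TCF letters CTTTGA (13.8%) were not found in the windows of these 7 genes. All were searched on both strands. A match describes the letters in these windows and shows no binding.

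The remaining ligands of the family were given as a list of 5 genes, Epgn and the neuregulins Nrg1 to Nrg4, of which 2 passed the filter. Nrg4, a neuregulin that binds Erbb4 and is known from fat and liver metabolism, was at 34.9, 28.3 and 29.0 CPM in WT and at 52.5, 122 and 100 CPM in Nr2e3-/- tumors. All knockout libraries were above all WT libraries, with replicate 1 again nearest to WT. The log2 fold change was 1.58 (95% interval 0.89 to 2.26, unadjusted p = 0.000931, adjusted p = 0.0930, edgeR). The gene overlaps Fbxo22 on chromosome 9 (55220222 to 55283654), the chromosome that also holds Nr2e3. Whether this position has a part in the difference of Nrg4 was not tested. Per length Nrg4 was at 12.8 to 15.8 CPM per kb in WT, above Tgfa in every library, and at 23.8 to 55.3 in Nr2e3-/- tumors. Nrg1 had a log2 fold change of -0.76 with overlapping groups.

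Genes that release the ligands from the membrane were a list of 10, of which 9 were tested, 7 above and 2 below 0, with a median log2 fold change of 0.19. None passed an adjusted p of 0.05 in edgeR. Only 1, the protease gene Adam9 (log2 fold change 0.73), had an unadjusted p under 0.05, where 21.5% of all tested genes did. Adam17, the main sheddase of Egfr ligands, was at 39.4, 38.0 and 38.0 CPM in WT and at 42.8, 49.8 and 43.2 CPM in Nr2e3-/- tumors, without overlap of the groups, and the adjusted p of its log2 fold change, 0.23, was 0.239 in edgeR. Among all tested genes, 13.9% were higher without overlap. Adam9 and Adam17 were named after their values were seen.

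Genes that restrain the receptors were a list of 20, of which 19 were tested. None passed an adjusted p of 0.05 in edgeR, and the median log2 fold change was 0.11. An unadjusted p under 0.05 was found for 2, both higher, where 11.8% of all tested genes were higher. The groups did not overlap for 1 higher and 2 lower genes, against 13.9% and 12.9% of all tested genes. Ptpn1, a tyrosine phosphatase that acts on Egfr, was at 36.7, 36.6 and 30.6 CPM in WT and at 38.7, 143 and 130 CPM in Nr2e3-/- tumors. Replicate 1 of the knockout was just above the WT libraries, and the other 2 were far above. The difference was 1.59 on the log2 scale (95% interval 0.56 to 2.62, adjusted p = 0.130, edgeR). Errfi1, an inhibitor that binds the Egfr kinase, was nearly level at 1333, 1401 and 1422 CPM in WT and 1342, 1433 and 1481 CPM in Nr2e3-/- tumors, and was named after its values were seen.

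Adaptors and effectors of the active receptors were a list of 25, all tested, 12 above and 13 below 0. None passed an adjusted p of 0.05 in edgeR, and 3 higher and 5 lower had an unadjusted p under 0.05. At that level, 11.8% of all tested genes were higher and 9.72% lower. The groups did not overlap for 2 higher and 4 lower genes, against 13.9% and 12.9% of all tested genes. Grb2, the adaptor that links Egfr to Ras, was at 30.6, 35.9 and 35.9 CPM in WT and at 42.8, 51.9 and 50.5 CPM in Nr2e3-/- tumors. The groups did not overlap, and the difference was 0.50 on the log2 scale (95% interval 0.22 to 0.79, adjusted p = 0.111, edgeR). For Stat3, a transcription factor activated downstream of Egfr, values were 184, 156 and 160 CPM in WT and 213, 367 and 328 CPM in the knockout libraries, which is 0.86 higher on the log2 scale (adjusted p = 0.111, edgeR). Lower values without overlap were found for Gab1 (log2 fold change -0.34), Plcg1 (-0.48), the regulatory PI3-kinase subunit Pik3r1 (-0.53) and the exchange factor Vav2 (-0.35), with adjusted p between 0.151 and 0.183 in edgeR.

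Immediate response and feedback genes, which are known to be induced by growth factor signaling, were a list of 26, of which 24 were tested. In this list 9 were above and 15 below 0, with a median log2 fold change of -0.27. An unadjusted p under 0.05 was found for 4 higher and 6 lower genes. At that level, 11.8% of all tested genes were higher and 9.72% lower. The groups did not overlap for 1 higher and 5 lower genes, against 13.9% and 12.9% of all tested genes. Phlda1, a pleckstrin-homology-like gene, fell and was the only gene of the list with an adjusted p under 0.05 in edgeR. It was at 102, 95.8 and 106 CPM in WT and at 41.4, 31.8 and 44.8 CPM in the knockout libraries, which is -1.37 in log2 fold change (adjusted p = 0.0454). The adjusted p was 0.0825 with the replicate block, and between 0.153 and 0.251 without WT replicate 1, 2 or 3 or Nr2e3-/- replicate 3 in turn, and under 0.05 in the other 8 alternatives. Lower values without overlap were also found for Spry1, an inhibitor of Ras signaling (log2 fold change -0.81), for the phosphatase gene Dusp1 (-0.48) and for Ier2 (-0.32), all with an adjusted p above 0.05. Sphk1, a lipid kinase, was above WT in all knockout libraries, at 0.384, 0.507 and 0.0694 CPM in WT and 0.794, 3.71 and 1.14 CPM in Nr2e3-/- tumors, from 2 to 100 counts. With a log2 fold change of 2.58 its adjusted p was 0.142 in edgeR. WT replicate 3, with 2 counts, was below the filter level of 0.380 CPM, so Sphk1 passed the filter only through the knockout group.

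**Figure D4:**
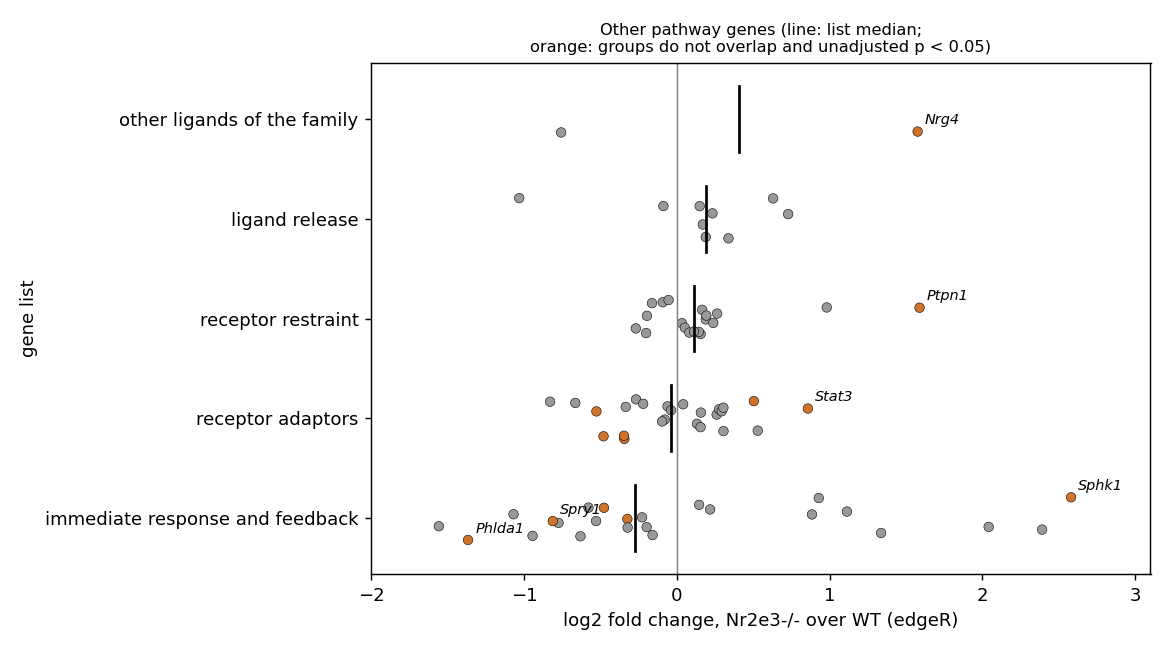
Log2 fold change of Nr2e3-/- over WT tumors for each tested gene of the 5 pathway lists, with the list median as a line and genes in orange where the groups do not overlap and the unadjusted p is under 0.05. Medians lie between -0.27 (immediate response and feedback) and 0.41 (other ligands, 2 genes).

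Nr2e3-/- replicate 2, which had the highest Egfr, Btc and Nrg4, also had the highest summed bile duct, macrophage and leukocyte markers. The summed level of 10 bile duct markers was 70.2 to 132 CPM in WT and 84.2, 441 and 198 CPM in Nr2e3-/- replicates 1, 2 and 3. Most of it was Spp1, while the duct keratins Krt7 and Krt19 were between 0.520 and 1.79 CPM in every library. Epcam, an epithelial adhesion gene, was at 1.80, 2.37 and 2.08 CPM in WT and at 1.79, 10.95 and 5.79 CPM in the knockout libraries (log2 fold change 1.58, adjusted p = 0.178, edgeR). Cldn7, a tight junction gene, was at 2.92, 7.04 and 0.728 CPM in WT and at 0.861, 0.705 and 1.03 CPM in the knockout libraries. These duct genes were named after their values were seen. Of the 8 tested, 5 were above and 3 below 0. The 10 macrophage markers summed to 420 to 528 CPM in WT and to 364, 911 and 477 CPM in the knockout libraries, and all 10 were above 0. The 10 markers of neutrophils and lymphocytes summed to 17.7 to 30.7 CPM in WT and to 13.0, 59.3 and 28.8 CPM in the knockout libraries. The largest part in every library was Ptprc, a general leukocyte gene, at 9.47 to 32.9 CPM. It was named after its values were seen. The sum is therefore not a level of neutrophils and lymphocytes alone. Of the 8 markers tested in this list, 3 were above 0 and 5 below. The neutrophil genes S100a8 and S100a9 were higher, with overlapping groups (log2 fold changes 2.65 and 2.30, adjusted p = 0.134 and 0.140, edgeR). Both were named after their values were seen. The 10 stellate cell and fibroblast markers summed to 365 to 450 CPM in WT and to 410, 257 and 226 CPM, with 3 above and 7 below 0. The 10 endothelial markers summed to 444 to 466 CPM and to 460, 446 and 369 CPM, with 5 above and 5 below 0. The 10 hepatocyte markers summed to 134978 to 162820 CPM in WT and 122158 to 143032 CPM in Nr2e3-/- tumors, with 7 above and 3 below 0. Most of this sum was Alb, at 84013 to 130236 CPM, with a log2 fold change of -0.27. By the rule for named genes, the hepatocyte genes Tat (log2 fold change 1.30) and Hnf4a (0.50) and the endothelial gene Lyve1 (0.82) were higher without overlap, and the endothelial genes Kdr (-0.61) and Emcn (-0.62) and the lymphocyte gene Cd79a (-1.36) were lower, all with an adjusted p above 0.05 in edgeR. Of these, Cd79a had 15, 14 and 11 counts in WT and 3, 5 and 3 in the knockout libraries, and passed the filter only through the WT group. Among all tested genes, 13.9% were higher and 12.9% lower without overlap. No marker gene was at 0 in all libraries. Their part in the values of Btc, Egfr and Nrg4 was not tested.

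The genes most like Egfr in pattern were ranked by Pearson correlation of log2 CPM over the 6 libraries. They were Eif3k, a translation initiation subunit (r = 0.993), Serpina3k, a serpin secreted by hepatocytes (0.990), Appbp2 (0.989), the ubiquitin ligase Rfwd3 (0.987) and Ranbp9 (0.986). Serpina3k was at 6422, 4459 and 6456 CPM in WT and at 9739, 12747 and 14430 CPM in Nr2e3-/- tumors. Eif3k followed the same order over a narrower span, from 33.7 to 43.3 CPM. These are the highest values among 13572 genes over 6 points that share library and depth, and are given as a description only.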

How the data were processed

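RNA-seq counts came from 3 liver tumor samples each of WT and Nr2e3-/- mice, grouped by sample title. The authors aligned single-end reads of TruSeq libraries to mm10 (GRCm38) with TopHat and counted them per gene with FeatureCounts, and the deposited values used here are raw counts. Strand and multi-overlap settings are not given in the sources used here. The deposited DESeq2 tables of the authors (normalized counts, and log2 fold changes with p-values) were not used.

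Counts of all 24063 genes were filtered with filterByExpr (minimum count 10, minimum total 15), normalized by TMM and tested with edgeR 4.0.16 (quasi-likelihood F test, two-sided, Benjamini-Hochberg over 13572 genes) in R 4.3.3. The 95% intervals use the standard error implied by F. Alternatives were RLE and upper quartile scaling, DESeq2 1.42.0, limma-voom (limma 3.58.1) with sample weights, other filters, the replicate number as a block, and leaving out each library. The pipeline was tested on simulated data. Exon lengths came from GENCODE basic (M21) and positions and promoters from RefSeq GRCm38.p6, and the annotation used for counting may differ. Figures used matplotlib 3.10.9.

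Members and lists were chosen with earlier results of these data known. The lists, written from memory, cover other ligands, ligand release, receptor restraint, adaptors, immediate response and feedback genes, and markers of 6 cell classes. Named genes are all members, list genes with an adjusted p under 0.05, or an unadjusted p under 0.05 and groups that do not overlap, and the 5 genes most like Egfr. Adgre1 was found by its older symbol. A marker gene that this rule names is not reported here.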

Additional observations from a re-analysis of the deposited data

How the results depend on the processing

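The number of genes with an adjusted p under 0.05, 13 in edgeR with TMM, ranged from 0 to 3022 when a single library was left out, the highest without Nr2e3-/- replicate 1. It was 0 without WT replicate 1, WT replicate 3 or Nr2e3-/- replicate 3, with 2151, 1785 and 1693 genes at an unadjusted p under 0.05, 2 without WT replicate 2, and 18 without Nr2e3-/- replicate 2. It was 8 with upper quartile scaling, 1093 with DESeq2, 2360 with limma-voom, 70 with no filter beyond 1 count and 7 with at least 10 counts in every library. With the replicate block it was 0, with 2438 genes at an unadjusted p under 0.05, and the block changed no member's call but ended that of Phlda1 (adjusted p = 0.0825). The labels give a number but no pairing, and the deviations of same-numbered libraries correlated at -0.08, 0.22 and 0.02, so not every library was closest to its own number.

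The number of members with an adjusted p under 0.05, 0 in edgeR, was 1 with DESeq2 (Egfr) and 2 with limma-voom (Egfr and Ereg). Of these, Ereg passed the filter only through the WT group. The number was 0 to 2 when a library was left out (Egfr and Btc without Nr2e3-/- replicate 1). The number with an unadjusted p under 0.05, 2 in edgeR, was 5 with limma-voom (36.7% of all genes) and 1 to 4 when a library was left out, the highest without Nr2e3-/- replicate 1 (37.7% of all genes). Upper quartile scaling moved the median of all genes from 0.01 to -0.08 and added Hbegf to the members whose groups do not overlap, 4 in place of 3. All 126 recomputed log2 fold changes of members kept their direction. The alternatives reuse the same libraries, so this adds little, and only the 95% intervals of Egfr and Hbegf lay on a single side of 0. Erbb2, Egf, Areg and Ereg could not be fitted when at least 10 counts were asked of every library. Their precision is limited by 3 to 44 counts per library. The causes of these changes were not tested.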
